A study of Mus musculus with 4 samples.

Results

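Levels of 8 RNA-binding proteins that set muscle splicing were compared in cardiomyocyte nuclei of the neonatal mouse heart, after injury and without the transcription factor Nrf1. They are Rbm20, Rbm24, Mbnl1, Mbnl2, Celf1, Celf2, Rbfox1 and Rbfox2, taken by gene symbol from families known to control splicing in striated muscle, and all 8 were found among the 22574 genes measured. The RNA came from single-nucleus RNA sequencing (snRNA-seq), which counts unique molecular identifiers (UMIs, 1 for each captured RNA molecule) in separate nuclei, here 8585 nuclei that the authors had classed as cardiomyocytes. There were 4 libraries, 1 for each group. WT-Sham and WT-MI came from mice with floxed Nrf1 alleles (Nrf1 fl/fl) and no Cre, and KO-Sham and KO-MI from Nrf1 fl/fl mice that also carried aMHC-Cre, a Cre driven by the cardiomyocyte alpha myosin heavy chain promoter. Nrf1 here is the protein encoded by Nfe2l1, and since no group carried Cre without the floxed alleles, effects of Cre and of the deletion cannot be told apart. Myocardial infarction (MI, ligation of a coronary artery) or the Sham operation was done at postnatal day 3 on a C57BL/6 background, hearts were taken 1 day later, and each library pooled tissue of 4 to 6 hearts.

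RBM20 represses exons of titin and of calcium-handling genes, and mutations in it cause dilated cardiomyopathy, while RBM24 favours inclusion of muscle exons in sarcomere transcripts. MBNL and CELF proteins act on overlapping sets of exons, often in opposite directions, and the balance between them shifts after birth, when fetal exon choices give way to adult ones. RBFOX1 and RBFOX2 bind near alternative exons in heart, skeletal muscle and brain, and RBFOX1 is the form that is more restricted to muscle and neurons. A UMI count gives the amount of a gene's RNA in the nuclei, unspliced RNA included, and shows nothing of which exons were joined.

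The libraries held 1406, 3328, 2003 and 1848 nuclei for WT-Sham, KO-Sham, WT-MI and KO-MI, an order kept in every list of 4 values that follows, and 4984625 to 9106522 UMIs in all, with a median UMI count per nucleus between 2572 in KO-Sham and 3959 in KO-MI. Levels are given as CPM, the UMIs of a gene in every 1000000 UMIs of the same sum. The 11 cardiomyocyte markers were detected in every library and summed to 40060, 40280, 35611 and 36037 CPM. The 7 injury genes summed to 947 and 1102 CPM in the Sham libraries and to 6881 and 8232 CPM in the MI libraries. Nfe2l1 was at 62.2, 50.5, 47.4 and 55.3 CPM, so the library labelled KO-MI was not below WT-MI, and where the UMIs lie on the gene is not known here, so this value is a weak check of the labels. Markers of other cell types summed to 565 to 920 CPM for 10 endothelial genes, 997 to 1197 CPM for 8 fibroblast genes and 2123 to 4519 CPM for 5 red cell genes, and 9 barcodes occurred in more than 1 library. With 1 library in each group no difference between conditions was tested. Ranges in parentheses are 95% intervals that cover counting error only. They are exact for ratios, while those of a difference of ratios combine both intervals and are approximate. A change is counted as large when it reaches 1.5-fold, which is 0.58 on the log2 scale, a limit of size and not of significance.

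The promoters of the 3 genes with the largest log2 differences between MI and Sham within the CM5 population described further on are printed here because the design bears on an upstream factor. Nrf1 binds, with small Maf partners, to antioxidant response elements. Each entry is the RefSeq sequence (GRCm38.p6) from 250 bases before to 50 after an annotated start, 5′ to 3′ on the gene's strand. Capitals in Mbnl2 mark a reverse-strand match to the element's core, TGACNNNGC.

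Mbnl2, chr14:120275419-120275718, plus strand: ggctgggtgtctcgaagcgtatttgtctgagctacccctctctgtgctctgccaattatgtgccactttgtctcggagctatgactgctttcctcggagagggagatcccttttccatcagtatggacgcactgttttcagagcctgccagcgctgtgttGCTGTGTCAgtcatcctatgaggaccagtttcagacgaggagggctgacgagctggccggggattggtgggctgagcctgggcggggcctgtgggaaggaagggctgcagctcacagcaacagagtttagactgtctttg

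Rbm24, chr13:46418050-46418349, plus strand: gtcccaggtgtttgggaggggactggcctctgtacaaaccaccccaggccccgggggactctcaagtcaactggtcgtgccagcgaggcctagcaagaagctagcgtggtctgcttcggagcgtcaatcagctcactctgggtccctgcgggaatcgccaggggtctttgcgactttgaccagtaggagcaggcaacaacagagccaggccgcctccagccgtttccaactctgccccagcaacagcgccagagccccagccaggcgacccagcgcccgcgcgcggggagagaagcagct

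Rbfox1, upstream start, chr16:5884543-5884842, plus strand: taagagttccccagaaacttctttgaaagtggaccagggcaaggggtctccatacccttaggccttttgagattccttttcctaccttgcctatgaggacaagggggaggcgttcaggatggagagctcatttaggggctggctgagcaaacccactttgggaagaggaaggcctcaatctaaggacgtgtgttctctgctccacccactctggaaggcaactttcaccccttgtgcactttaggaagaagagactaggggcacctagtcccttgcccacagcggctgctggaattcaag

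Rbfox1, downstream start, chr16:7069585-7069884, plus strand: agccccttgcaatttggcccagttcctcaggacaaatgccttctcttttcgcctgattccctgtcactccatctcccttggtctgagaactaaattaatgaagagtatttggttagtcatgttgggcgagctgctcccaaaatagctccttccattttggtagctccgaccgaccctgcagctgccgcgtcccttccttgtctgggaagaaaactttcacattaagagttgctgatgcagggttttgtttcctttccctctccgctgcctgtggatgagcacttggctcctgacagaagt

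Entries were found for 6 of the 8 genes (all but Rbm20 and Rbfox2), 12 entries in all, and that of Mbnl2 alone held the core on either strand, beside 12.4% of 32851 promoters in the table. The AP-1 site (TGACTCA or TGAGTCA), held by 5.20% of promoters, and the MEF2 and CArG motifs, held by 3.19% and 1.63%, were not found in any of the 12. CG pairs numbered 10 in the Mbnl2 entry, 18 in that of Rbm24, and 3 and 7 in those of Rbfox1, beside a median of 7. A match to letters is a description of the window and not a binding site.

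Rbm20 gave the most UMIs of the 8 genes in every library, with 3675, 2934, 2847 and 2655 CPM over all nuclei. It was followed in WT-Sham by Celf2 with 1407 CPM, Rbfox1 with 937 CPM and Rbm24 with 818 CPM, and in that library Celf1, with 196 CPM, was the lowest. Because snRNA-seq also counts RNA with introns, this order of UMIs may depend on gene length as well as on amount. Levels are therefore also given per kb of the span from first to last annotated base. The spans differ widely, from 12.7 kb for Rbm24 (chr13:46418434-46431095, plus strand) to 1526 kb for Rbfox1 (chr16:5885355-7411526, plus strand). Those of Rbm20 (chr19:53677306-53867080, plus), Mbnl1 (chr3:60472830-60629750, plus), Mbnl2 (chr14:120275669-120431697, plus), Celf1 (chr2:90940382-91019497, plus), Celf2 (chr2:6539694-7509563, minus) and Rbfox2 (chr15:77078990-77307004, minus) lie between. Coordinates are those of GRCm38. No other protein-coding gene overlaps any of the 8, but noncoding ones overlap all except Rbm24 and Celf1, and whether strand was used in counting is not given in the sources used here.

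Per kb of span the order was Rbm24 with 47.6 ± 13.5 CPM (mean ± SD, n = 4 libraries, which are of different groups), Rbm20 with 16 ± 2.36, Mbnl2 with 3.5 ± 0.70 and Celf1 with 2.64 ± 0.27. Celf2 with 1.57 ± 0.24, Mbnl1 with 1.56 ± 0.06 and Rbfox2 with 1.33 ± 0.32 followed and lay within each other's spread, and Rbfox1 was last with 0.437 ± 0.134. The genes of the RBM pair, both linked to sarcomere transcripts, thus led per length, and Rbfox1, among the higher by UMIs, was lowest once its long span was counted. Rbm24 also has the shortest span of these genes and Rbfox1 the longest. Whether UMIs rise in proportion to span was not tested, nor was the part of the division by span in this order. The order per kb is therefore not a ranking of RNA amounts.

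**Figure D1:**
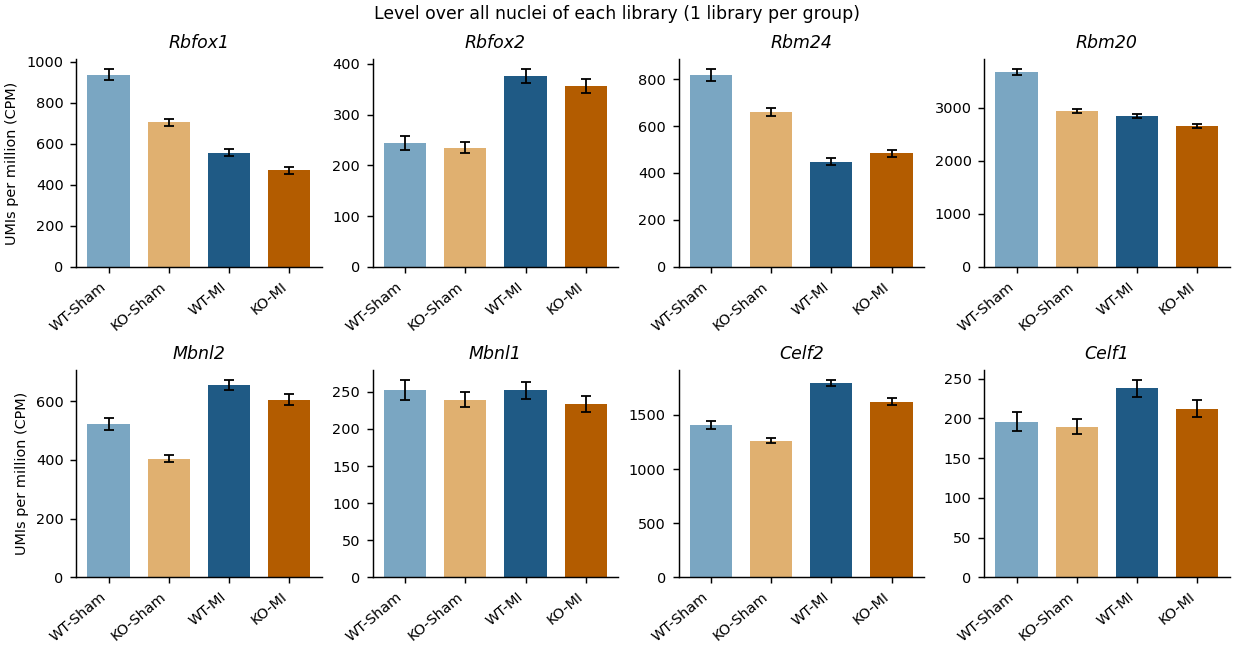
Levels of the 8 genes over all cardiomyocyte nuclei, with 1 bar for each library, in CPM (axis from 0), and the exact 95% counting interval. Rbfox1, Rbm24 and Rbm20 are lower in both MI libraries than in both Sham libraries. Rbfox2, Mbnl2, Celf2 and Celf1 are higher, and Mbnl1 stays between 233 and 252 CPM.

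After MI, the pair of RBFOX genes differed in opposite directions. Rbfox1 was at 937 and 705 CPM in the Sham libraries and at 556 and 469 CPM in the MI libraries, so that both injured libraries lay below both others. On the log2 scale MI over Sham was −0.75 (−0.81 to −0.69) in WT and −0.59 (−0.65 to −0.53) in KO. Rbfox2, the more widely expressed paralogue, went the other way, from 244 and 235 CPM to 376 and 356 CPM, a log2 ratio of 0.63 (0.53 to 0.72) in WT and 0.60 (0.52 to 0.68) in KO. The difference between the ratios of Rbfox1 and Rbfox2 was −1.38 (−1.49 to −1.26) in WT and −1.18 (−1.29 to −1.08) in KO, and the UMIs of Rbfox1 for each UMI of Rbfox2 were 3.84 and 3.0 in the Sham libraries and 1.48 and 1.32 in the MI libraries. In a sum over nuclei, fewer nuclei of a type and less RNA in each of them cannot be told apart, and the MI libraries held more nuclei of the population CM5 described further on (339 and 355, beside 89 and 234). Here and below, the share of all genes whose MI libraries both lie on the same side of both Sham libraries is not given.

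The RBM genes were lower after MI, Rbm24 more than Rbm20. Rbm24 was at 818 and 660 CPM in the Sham libraries and 448 and 483 CPM in the MI libraries, which do not overlap, with a log2 ratio of −0.87 (−0.93 to −0.80) in WT and −0.45 (−0.51 to −0.39) in KO. Among all genes tested the WT ratio of Rbm24 lay at percentile 5.68, that of Rbfox1 at 7.96 and that of Rbfox2 at 90.7. For Rbm20 the log2 ratio was −0.37 (−0.40 to −0.34) in WT and −0.14 (−0.17 to −0.12) in KO, and Rbm24 minus Rbm20 was −0.50 (−0.57 to −0.43) and −0.31 (−0.37 to −0.24).

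Of the MBNL genes, which promote the adult pattern of exon use, Mbnl2 was higher after MI and Mbnl1 hardly differed. Mbnl2 was at 522, 404, 655 and 605 CPM, with both MI libraries above both Sham libraries and a log2 ratio of 0.33 (0.26 to 0.40) in WT and 0.58 (0.52 to 0.65) in KO, the latter just short of 1.5-fold. Mbnl1 was at 252, 239, 252 and 233 CPM, and its ratio of −0.00 (−0.10 to 0.10) in WT and −0.04 (−0.13 to 0.06) in KO allows, by counting error alone, for a difference of at most 0.13 in either direction. Mbnl2 minus Mbnl1 was 0.33 (0.21 to 0.45) and 0.62 (0.51 to 0.73).

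Both CELF genes, whose proteins favour fetal exon choices, were somewhat higher after MI. Celf2 was at 1407, 1260, 1797 and 1624 CPM, with a log2 ratio of 0.35 (0.31 to 0.39) in WT and 0.37 (0.33 to 0.40) in KO. Celf1 was at 196, 190, 238 and 212 CPM, with a ratio of 0.28 (0.17 to 0.39) and 0.16 (0.06 to 0.26). Neither reached 1.5-fold, and the Celf2 to Celf1 UMI ratio stayed between 6.64 and 7.66.

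In all, 3 of the 8 genes reached 1.5-fold in WT (Rbfox2 up, Rbm24 and Rbfox1 down) and 2 of 8 in KO (Rbfox2 up, Rbfox1 down), beside 23.9% of the 11362 genes with 50 or more UMIs in WT and 22.5% of 11857 in KO. Under 11 other settings, described at the end, Rbm24 and Rbfox1 in WT stayed past it in all 11 and Rbfox2 in WT in 9. In KO, Rbfox1 did in 7 and Rbfox2 in only 5. The median over the 8 was 0.14 in WT and 0.06 in KO, and that over all genes −0.06 and 0.04, so the group as a whole did not move one way. Only 14, 35, 7 and 9 nuclei, 65 in all, held no UMI of endothelial, fibroblast, myeloid and lymphoid, mural, or neural and glial markers. Red cell genes were not part of this choice. In these nuclei the WT ratio of Rbfox2 was −0.11 and the KO ratio of Rbfox1 0.18, opposite in sign to the values over all nuclei. The sums of so few nuclei are small, and no interval is given for them.

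**Figure D2:**
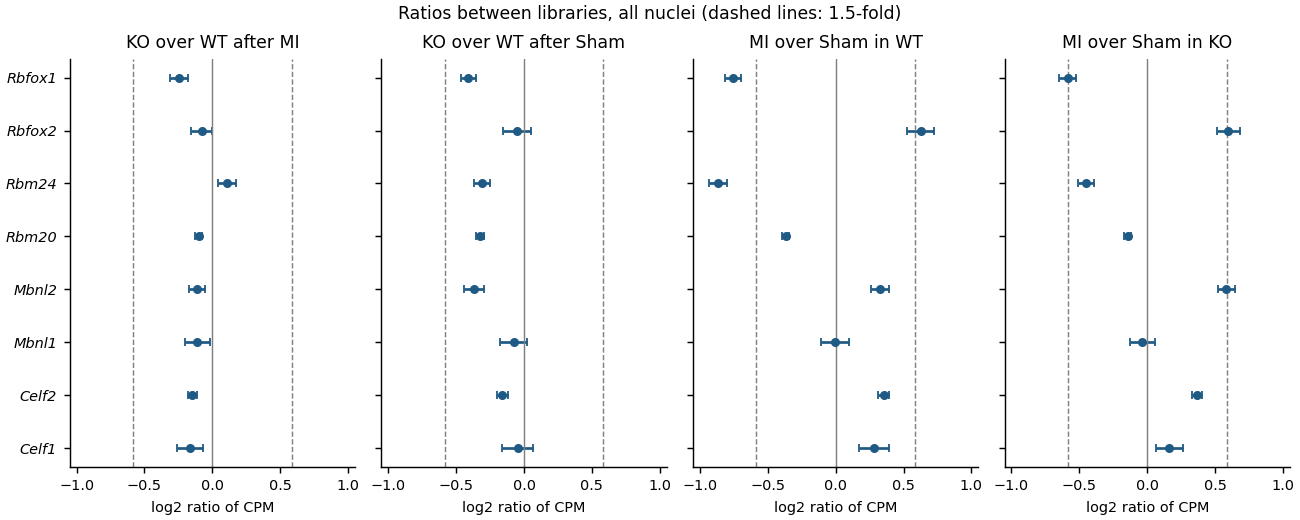
Log2 ratios of the 8 genes over all nuclei in 4 comparisons (MI over Sham in each genotype, KO over WT after each operation), with points for the ratio, bars for the exact 95% counting interval and dashed lines at 1.5-fold. Rbfox1 lies at −0.75 and −0.59 and Rbfox2 at 0.63 and 0.60 in MI over Sham, while no point in the KO over WT panels passes a dashed line.

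The authors' labels split the nuclei into CM1 (in which they had merged CM3), CM2, CM4 and CM5. CM1 held 1098, 2619, 1415 and 1308 nuclei, and CM5 held 89, 234, 339 and 355. The injury genes summed to 13074 and 15434 CPM in CM5 of the MI libraries and to 1916 and 2474 CPM in CM5 of the Sham libraries, and the cardiomyocyte markers to 27548 and 27939 CPM beside 40268 and 40849 CPM. Thus CM5 nuclei of injured and uninjured hearts differed in the genes that mark injury. The authors set the populations from the expression of the same nuclei, so levels between populations are descriptions.

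Rbfox1 was far lower in CM5 of the injured hearts. There it was at 69.7 and 75.5 CPM (103 and 106 UMIs) in WT-MI and KO-MI, beside 698 and 376 CPM (227 and 239 UMIs) in WT-Sham and KO-Sham. The log2 ratio was −3.32 (−3.67 to −2.98) in WT and −2.32 (−2.66 to −1.98) in KO, at percentiles 0.0384 and 0.310 among the genes with enough UMIs in CM5. CM1 of the same libraries moved less, from 1027 and 767 CPM to 707 and 584 CPM, with ratios of −0.54 (−0.60 to −0.48) and −0.39 (−0.46 to −0.33). The ratio in CM5 minus that in CM1 was −2.79 (−3.14 to −2.44) in WT and −1.92 (−2.27 to −1.58) in KO. Genes of 500 kb or more had a median ratio of −0.11 and 0.06 in CM5.

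When each nucleus was thinned to 1000 UMIs, so that depth was equal, Rbfox1 was detected in 43.8%, 26.1%, 7.08% and 5.92% of CM5 nuclei and in 53.7%, 46.2%, 38.8% and 37.6% of CM1 nuclei. Unthinned, the CM5 shares were 74.2%, 50.4%, 17.1% and 15.5%. The endothelial gene Flt1 had a thinned share of 1.35% to 2.0% and the fibroblast collagen gene Col3a1 one of 29.9% to 35.9% over all nuclei, although cardiomyocytes should lack both. Fewer CM5 nuclei of injured hearts therefore held an Rbfox1 UMI at equal depth, and because Col3a1 was detected more often than that, such a UMI cannot be read as expression in the nucleus that held it.

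Rbfox2 showed no such split between populations. It was at 255, 255, 389 and 374 CPM in CM5 and at 253, 238, 384 and 362 CPM in CM1, higher in the MI libraries of both. Its CM5 ratios were 0.61 (0.27 to 0.96) in WT and 0.55 (0.30 to 0.82) in KO. Rbfox1 minus Rbfox2 in CM5 was −3.93 (−4.43 to −3.45) and −2.87 (−3.30 to −2.45), and the UMIs of Rbfox1 for each of Rbfox2 went from 2.73 and 1.48 in the Sham libraries to 0.179 and 0.202 in the MI libraries. Such UMI ratios compare libraries and not the genes' levels. Per kb of span Rbfox2 was the higher of the pair in CM5 of every library, with 1.12, 1.12, 1.71 and 1.64 CPM beside 0.457, 0.246, 0.0457 and 0.0495 CPM for Rbfox1. By UMIs Rbfox1 was the higher in the Sham libraries, so the order of the pair there depends on whether span is counted.

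Rbm24 was likewise lower in CM5 after MI, at 735, 647, 234 and 241 CPM, beside 885, 686, 518 and 556 CPM in CM1. The CM5 ratios were −1.65 (−1.90 to −1.41) in WT and −1.42 (−1.63 to −1.21) in KO, and the difference from CM1 was −0.88 (−1.13 to −0.63) and −1.12 (−1.34 to −0.90). Rbm20, the titin regulator, was at 3305, 2706, 2010 and 1818 CPM in CM5, with ratios of −0.72 (−0.82 to −0.62) and −0.57 (−0.66 to −0.48), while in CM1 it was at 3970, 3083, 3167 and 2973 CPM. The thinned share of CM5 nuclei with a Rbm24 UMI was 50.6%, 46.6%, 17.4% and 20.8%, and that with a Rbm20 UMI 89.9%, 92.7%, 74.9% and 74.9%. The share for Rbm20 was lower after MI as its level was, but with so abundant an RNA it cannot be read nucleus by nucleus.

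Mbnl2 was higher in CM5 of the injured hearts, by more than in CM1. It was at 510, 433, 1102 and 977 CPM in CM5, with ratios of 1.11 (0.88 to 1.35) in WT and 1.17 (0.99 to 1.37) in KO. In CM1 it was at 554, 413, 561 and 533 CPM, with ratios of 0.02 (−0.06 to 0.10) and 0.37 (0.29 to 0.44). The difference between the populations was 1.09 (0.85 to 1.34) and 0.81 (0.60 to 1.01), and the thinned share of CM5 nuclei with a Mbnl2 UMI was 40.4%, 33.8%, 60.5% and 55.5%. Mbnl1 in CM5 stayed at 224, 238, 265 and 229 CPM, so the UMIs of Mbnl2 for each of Mbnl1 went from 2.27 and 1.82 to 4.15 and 4.27.

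The CELF genes differed little between CM5 and CM1. Celf2 was higher in CM5 in all 4 libraries, at 1790, 1486, 2120 and 1858 CPM beside 1466, 1283, 1781 and 1631 CPM, which is 0.19 to 0.29 on the log2 scale. Celf1 was at 206, 235, 232 and 212 CPM in CM5 beside 205, 189, 244 and 216 CPM in CM1, and its intervals for MI over Sham in CM5 include 0 in both genotypes.

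In CM5, 5 of the 8 genes reached 1.5-fold in WT (Mbnl2 and Rbfox2 up, Rbfox1, Rbm24 and Rbm20 down) and 3 of 8 in KO (Mbnl2 up, Rbfox1 and Rbm24 down), beside 41.4% of 5206 genes and 40.7% of 5810. In CM1 it was 2 of 8 in WT (Rbfox2 up, Rbm24 down) and 1 of 8 in KO (Rbfox2 up), beside 20% and 20.9%. That KO value of Rbfox2 stayed past 1.5-fold in 5 of 12 other settings. Compared within a library, CM5 differed from CM1 by 1.5-fold or more for none of the 8 in WT-Sham, where the background was 25.2%, and for 1, Rbfox1, in KO-Sham, where it was 19.1%. In WT-MI and in KO-MI it was the same 4 genes, Mbnl2 up and Rbm20, Rbm24 and Rbfox1 down, with backgrounds of 29.7% and 29.8%. The endothelial markers summed to 959, 853, 472 and 598 CPM in CM5 and the fibroblast markers to 1205, 1017, 965 and 1089 CPM, both lower after MI in WT. Higher after MI in both genotypes were the 6 mural markers with 67.6, 91.3, 129 and 172 CPM (Myh11 at 0 in all 4 libraries), the 10 myeloid and lymphoid markers with 79.9, 51.9, 127 and 94.0 CPM, and the red cell genes with 1916, 1716, 3693 and 2192 CPM, and the part of any list in the CM5 ratios was not tested. A choice made after seeing the data kept nuclei with a share of other cell types' marker UMIs at or below their library's median. Red cell genes were not part of this share. In the nuclei so kept, called poorer in RNA of other cell types, the CM5 ratio of Rbfox1 was −3.47 in WT and −2.48 in KO. That of Rbm24 was −1.80 and −1.32 and that of Mbnl2 1.08 and 1.07. Most nuclei of the final CM5 (73.1%) carry CM2 as the label that the authors transferred from earlier data, and most of the final CM2 (71.6%) carry CM5, so with the transferred label CM5 holds other nuclei and the ratio of Rbfox1 was 0.14 in WT and 0.031 in KO. With those numbers exchanged, again a choice made after seeing the data, it was −3.62 and −2.61.

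**Figure D3:**
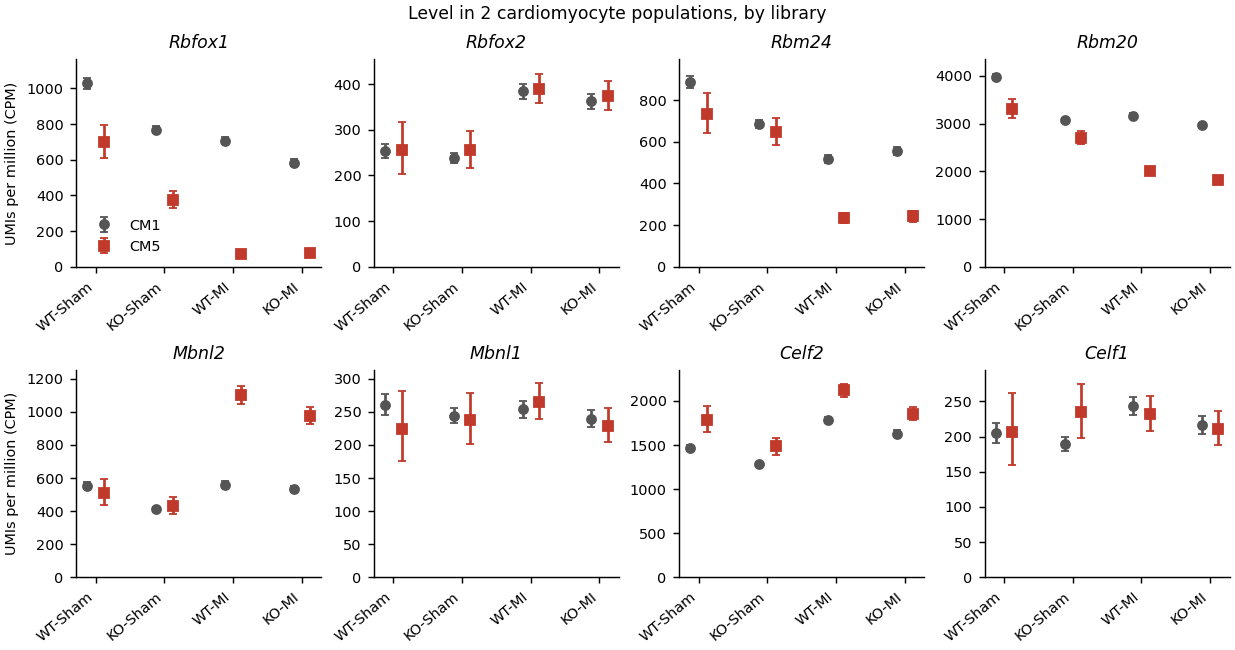
Levels of the 8 genes in CM1 (grey circles) and CM5 (red squares) of each library, in CPM (linear axes from 0), with exact 95% counting intervals. In the MI libraries the CM5 squares lie far below CM1 for Rbfox1 (69.7 and 75.5 CPM) and Rbm24 (234 and 241 CPM) and above it for Mbnl2 (1102 and 977 CPM), while the populations lie close together for Rbfox2 and Mbnl1.

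KO and WT libraries differed less in these genes than MI and Sham libraries. Over all nuclei none of the 8 genes reached 1.5-fold between KO and WT, either after MI, where 3.62% of all genes did, or after Sham, where 7.03% did. After MI the log2 ratios ran from −0.24 (−0.31 to −0.18) for Rbfox1 to 0.11 (0.04 to 0.18) for Rbm24. All except Rbm24 were below 0, and the median was −0.11 beside 0.03 over all genes.

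After Sham the ratio of KO over WT was lowest for Rbfox1, at −0.41 (−0.47 to −0.36), and for Mbnl2, at −0.37 (−0.44 to −0.30), followed by Rbm20 at −0.32 (−0.35 to −0.30) and Rbm24 at −0.31 (−0.37 to −0.25). Celf2 was at −0.16 (−0.20 to −0.12), and the intervals of Mbnl1, Celf1 and Rbfox2 included 0. All 8 ratios were below 0, but those of Mbnl1, Celf1 and Rbfox2 were above 0 with TMM scaling, which moves every ratio of this comparison by 0.11, and the median of all genes was itself −0.09. Long genes were lower as a class in KO-Sham, with medians of −0.20 for spans of 100 to 500 kb and −0.23 above 500 kb, against 0.05 below 20 kb. Rbm24, of 12.7 kb, lay below its class, and Rbm20, Mbnl2 and Rbfox1 below theirs by less. KO-Sham also had the lowest median depth, 2572 UMIs, and the highest median mitochondrial percentage, 8.98%, beside 5.29% to 6.58% in the other libraries, and the part of these in the ratios was not tested.

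Within CM1, none of the 8 reached 1.5-fold between KO and WT after either operation, beside 4.14% of genes after MI and 10.3% after Sham. Within CM5 none did after MI, beside 7.51%, and 1 did after Sham, beside 16.4%. That gene was Rbfox1, at 698 CPM in WT-Sham and 376 CPM in KO-Sham, a log2 ratio of −0.89 (−1.16 to −0.62), while after MI the ratio was 0.12 (−0.29 to 0.52). The difference between these ratios was 1.01 (0.52 to 1.49). CM5 of uninjured WT hearts was therefore highest and that of uninjured KO hearts intermediate, and the injured libraries of both genotypes were lowest and did not differ beyond counting error.

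CM4 held the nuclei with the fewest UMIs, 192, 351, 192 and 118 of them, with median UMI counts of 1716, 1859, 1853 and 2394 and median mitochondrial percentages of 14.6%, 11.6%, 10.8% and 9.47%. All 8 genes were lower in CM4 than in CM1 of the same library in 4 of 4 libraries, with a median of −0.98. Those lower by 1.5-fold numbered 8, 5, 5 and 7, beside 68.6%, 37.0%, 54.5% and 62.9% of all genes past it in either direction. The median over all genes was −0.43, −0.11, −0.09 and −0.22. With the median of genes of 100 kb or more set to no change the median over the 8 was −0.20. Mbnl1, Celf1 and Rbfox2 in WT-Sham and Mbnl1 and Rbfox2 in KO-MI were then above 0. In the nuclei poorer in RNA of other cell types, Mbnl1 and Celf1 in WT-Sham were above 0, in smaller sums given without intervals. The log2 ratio of CM4 over CM1 ran from −1.95 to −1.0 for Rbfox1, from −2.01 to −0.76 for Rbm20, from −1.93 to −0.65 for Rbm24 and from −1.54 to −0.79 for Celf2. It was nearer to 0 for Rbfox2, Mbnl2, Mbnl1 and Celf1, the last with −0.95 to −0.33.

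Long genes as a class were also lower in CM4. The median over genes of 500 kb or more was −1.56, −0.69, −0.77 and −1.06, that over genes of 100 to 500 kb −1.15, −0.50, −0.55 and −0.84, and that over genes under 20 kb 0.61, 0.32, 0.58 and 0.62. Rbm24, although short, was at −1.93, −0.65, −1.33 and −1.18, far below its class in every library. Rbm20 and Rbfox1 also lay below their classes in 4 of 4 libraries, whereas Mbnl2 and Rbfox2 lay on both sides of theirs. CM4 also held more RNA of other cells, with endothelial markers at 1661 to 1803 CPM and fibroblast markers at 2030 to 2531 CPM, beside 481 to 859 and 916 to 1079 CPM in CM1, and red cell genes at 12805, 7833, 8411 and 3538 CPM. The part of these in the lower levels was not tested.

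**Figure D4:**
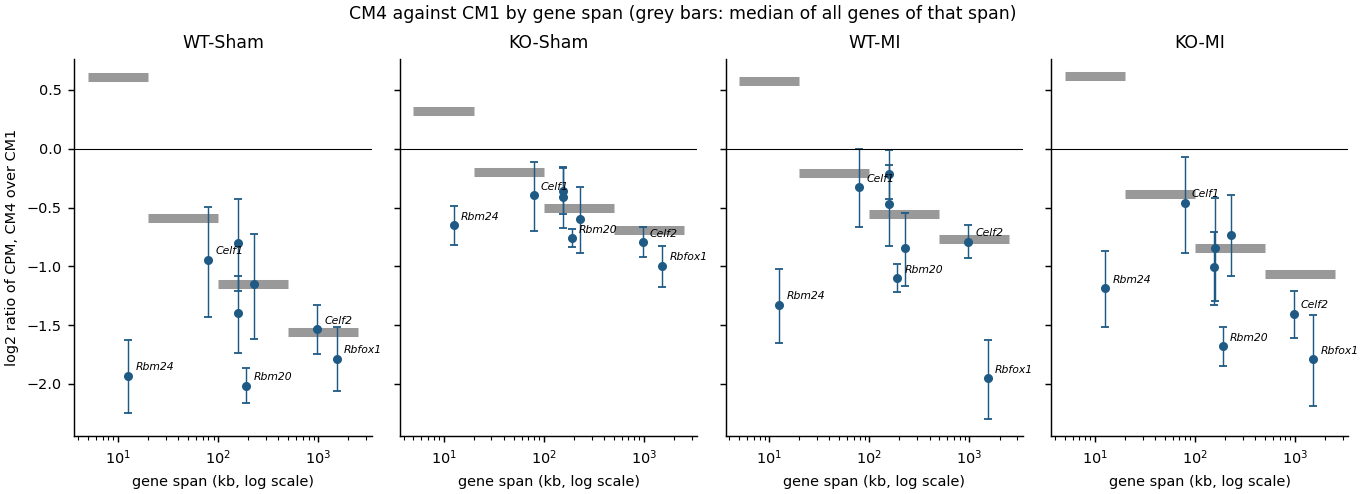
Log2 ratio of CM4 over CM1 against gene span in kb (log axis), with 1 panel for each library, points for the 8 genes with exact 95% counting intervals and grey bars for the median over all genes in 4 span classes. The grey bars drop from about 0.32 to 0.62 below 20 kb to −0.69 to −1.56 above 500 kb, and Rbm24 lies well under the bar of its class.

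Within CM4, MI over Sham reached 1.5-fold for 6 of 8 genes in WT (Rbm20, Mbnl2, Celf1, Celf2 and Rbfox2 up, Rbfox1 down), beside 41.2% of genes, and for 3 of 8 in KO (Rbm20, Rbm24 and Rbfox1 down), beside 32%. In the nuclei poorer in RNA of other cell types the WT values of Rbm20 and Celf1 turned to −0.51 and −1.06. These sums are smaller and have no interval here, and for Celf1 even the full CM4 sums held only 82 UMIs in WT-MI and 42 in WT-Sham. KO over WT reached it for 3 genes after MI (Rbm20, Mbnl2 and Celf2 down), beside 23.5%, and for 3 after Sham (Rbm20, Rbm24 and Mbnl2 up), beside 23%. In the same nuclei the values after MI were −0.08 for Rbm20, 0.13 for Mbnl2 and −2.07 for Celf2. Rbfox1 was the only one of the 8 below 0 beyond counting error in both genotypes, at −0.71 (−1.14 to −0.28) and −1.19 (−1.62 to −0.78). Long genes as a class moved alongside the others, with medians for 100 to 500 kb of 0.51 in WT and −0.26 in KO for MI over Sham.

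CM2 held 27, 124, 57 and 67 nuclei and was the cycling population, with 12 cell cycle genes that summed to 1609, 2407, 1919 and 2033 CPM beside 91.9 to 138 CPM in CM1. Against CM1 of the same library, 2 of the 8 genes reached 1.5-fold in WT-Sham, Mbnl1 up by 0.59 and Rbfox1 down, beside 45% of all genes, and none did in KO-Sham, WT-MI or KO-MI, beside 31.9%, 34.2% and 30.8%. With the transferred label the value for Mbnl1 was −0.49. The log2 ratio of CM2 over CM1 was −0.25, −0.24, −0.24 and −0.02 for Rbm20, −0.90, −0.22, −0.37 and 0.12 for Rbfox1 and 0.38, 0.26, 0.02 and −0.18 for Rbfox2. Rbm20 alone was on the same side of 0 in all 4 libraries. Within CM2, MI over Sham reached 1.5-fold for Mbnl1 in WT (−0.68, −1.25 to −0.09, from 63 and 44 UMIs), beside 23.8% of genes, and for Mbnl2 in KO (0.61, 0.27 to 0.95), beside 20.3%. KO over WT reached it for Mbnl1 after Sham (−0.59, −1.12 to −0.05), beside 26.8%, and for none after MI, beside 11%. These sums are small, and both Mbnl1 ratios were above 0 with the transferred label, at 0.57 and 0.36.

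**Figure D5:**
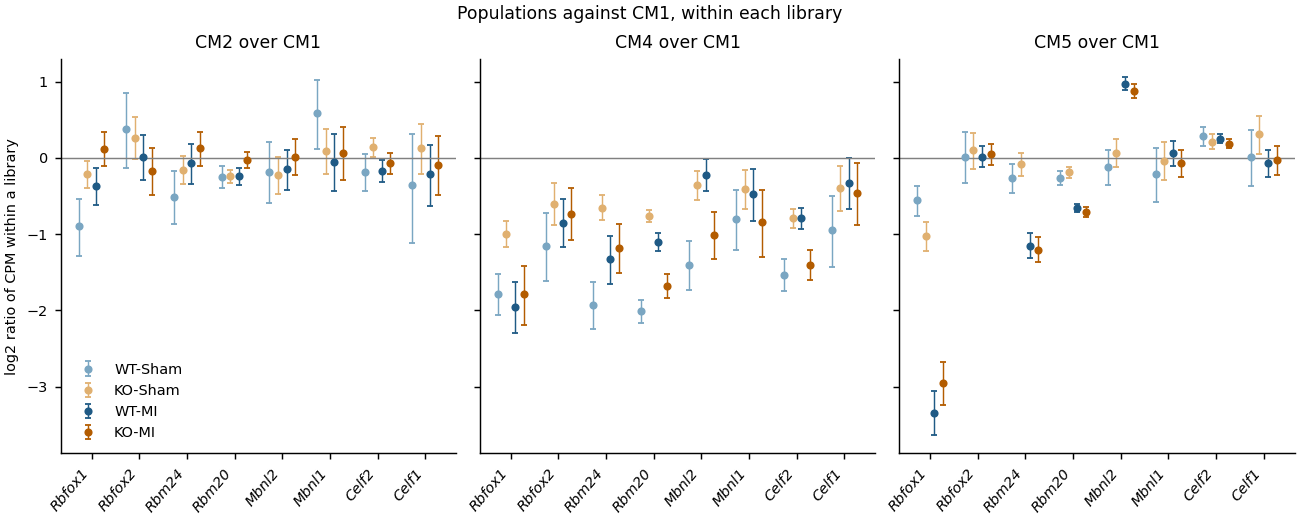
Log2 ratios of CM2, CM4 and CM5 over CM1 within each library for the 8 genes, with exact 95% counting intervals. CM2 lies on both sides of 0 with wide intervals, down to −0.90 for Rbfox1 in WT-Sham, all 8 genes lie below 0 in CM4, and in CM5 the MI libraries stand apart from the Sham libraries for Rbfox1, Rbm24, Rbm20 and Mbnl2.

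The paralogues of the 8 genes gave fewer UMIs over all nuclei than any of the 8. Mbnl3 was at 9.43, 7.91, 6.91 and 7.07 CPM, and Rbm38, the relative of Rbm24, at 44.9, 32.0, 35.8 and 43.3 CPM. Per kb of span Rbm38 was at 3.16, 2.24, 2.52 and 3.04 CPM, above Celf2, Mbnl1, Rbfox2 and Rbfox1 in every library. In the cycling population CM2, Mbnl3 was at 107, 54.3, 50.5 and 24.1 CPM, from 12, 22, 13 and 7 UMIs, beside 7.95, 5.86, 5.17 and 6.01 CPM in CM1. Their 95% intervals do not overlap in any of the 4 libraries. The neuronal Rbfox3 gave 2, 2, 0 and 0 UMIs and Celf4 10, 15, 9 and 8, while Celf3, Celf5 and Celf6 gave at most 5 in any library. A count of 0 is taken to allow up to 3 UMIs, the floor used here.

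Other splicing genes were measured over all nuclei as well. Over all genes 3.62% and 7.03% reached 1.5-fold for KO over WT after MI and Sham, and 23.9% and 22.5% for MI over Sham in WT and KO. Of 19 SR proteins and their kinases, which select and activate splice sites, none reached 1.5-fold over all nuclei in any of the 4 comparisons. Son, a scaffold of nuclear speckles, came nearest, at 573, 481, 674 and 722 CPM. It fell only just short of 1.5-fold for MI over Sham in KO. Of 22 core spliceosome genes, 1 reached it, Slu7, a second-step factor, in WT (15.6 CPM in WT-Sham and 9.05 CPM in WT-MI, log2 −0.79, −1.27 to −0.31). Of 36 other splicing regulators, 31 or 32 had enough UMIs. None of these reached 1.5-fold in WT after MI or between genotypes, and 3 did in KO after MI. Of those, Ptbp2, a paralogue of the splicing repressor Ptbp1, was at 127, 112, 175 and 181 CPM (0.70, 0.58 to 0.82), Ptbp1 at 19.5, 15.5, 24.1 and 23.5 CPM (0.60 in KO), and Nova1 rested on 19 and 37 UMIs (−0.65, −1.53 to 0.18). Their medians for MI over Sham were −0.01 and 0.05 for the other regulators, 0.02 and 0.11 for the SR genes and 0.10 and 0.04 for the spliceosome.

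Transcripts known to be spliced under these proteins were measured too, though only as amounts. Of 32 listed, 31 had enough UMIs for MI over Sham, where 6 were higher and 5 lower by 1.5-fold in WT and 8 higher and 3 lower in KO, beside the 23.9% and 22.5% of all genes given above. Enah, an actin regulator with a muscle exon, was the highest, at 437, 374, 1106 and 1067 CPM (log2 1.34, 1.27 to 1.41 in WT and 1.51, 1.45 to 1.57 in KO), and Neb, which encodes the thin filament protein nebulin, the lowest, at 31.7, 28.3, 12.1 and 14.4 CPM (−1.39, −1.77 to −1.02 and −0.98, −1.32 to −0.64). In both cases the MI libraries did not overlap the Sham libraries. Between genotypes the highest was Tpm1, a tropomyosin, at 2842, 3979, 3212 and 4055 CPM (0.49, 0.46 to 0.51 after Sham and 0.34, 0.31 to 0.36 after MI). Camk2d, a calcium kinase spliced by RBM20, was the lowest after MI (−0.20, −0.24 to −0.16). Bin1 was the lowest after Sham and the only one of these to reach 1.5-fold between genotypes, on 33 and 28 UMIs (−0.63, −1.40 to 0.15).

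The genes with the most similar pattern were found by Pearson correlation of log2(CPM + 10) over the 16 sums of a library and a population, which share libraries and depth and are not independent. For Rbfox1 these were Nr3c2 (r = 0.972), Pitpnc1 (0.965) and Agtr1a (0.961). For Mbnl2 they were Pde4dip (0.972), Vegfa (0.972) and Tns1 (0.968), and for Rbm24 Hand2os1 (0.969), Stk39 (0.969) and Slc25a42 (0.964). Vegfa encodes an angiogenic growth factor, and Nr3c2 and Agtr1a receptors of the renin-angiotensin-aldosterone axis. For Rbm20 they were Tbc1d4 (0.980), Fhod3 (0.978) and Ablim1 (0.971), for Celf2 Efna5 (0.981), Ube2g1 (0.977) and Arih1 (0.973), and for Rbfox2 B4galt1 (0.978), Magi1 (0.967) and Sgcd (0.961). Mbnl1 was closest to Urgcp (0.954), Ddx17 (0.953) and Secisbp2 (0.951), and Celf1 to Ipo8 (0.922), Nf1 (0.908) and Ankib1 (0.903). Between the 8 genes themselves r was 0.897 for Celf1 and Celf2, 0.881 for Rbm24 and Rbfox1 and 0.872 for Rbm20 and Rbm24, but −0.020 for Rbfox1 and Rbfox2 and −0.337 for Mbnl2 and Rbfox1.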

How the data were processed

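Nuclei of neonatal mouse hearts were profiled by droplet snRNA-seq, 1 library for each of 4 groups. The authors aligned reads to the mm10/GRCm38 pre-mRNA reference and counted with Cell Ranger, removed doublets called by Scrublet, filtered nuclei by detected genes (537 to 2499 in the deposited matrix) and kept clusters with Tnnt2, using Seurat 3. The deposited values used are raw UMI counts for each gene and nucleus, the library and population of each nucleus, its mitochondrial percent and the score of its transferred label, a fraction deposited by the authors. The other 10 columns that describe each nucleus were left aside.

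Counts were summed for each library and population and divided by their total (CPM), and log2 ratios of these sums were computed with exact conditional binomial 95% intervals, levels with exact Poisson intervals and shares with exact binomial intervals. Intervals of a difference of ratios combine both intervals. These cover counting error only. Each group is 1 library, so no test between conditions was made. A gene counted toward the background with 50 or more UMIs over both sums, and a sum of 0 was set to 3 UMIs. Nuclei were also thinned to 1000 UMIs, which left out 6 nuclei of WT-Sham and 1 of WT-MI. Spans came from GENCODE on GRCm38, to which 22122 symbols (98.0%) matched. All 8 genes were named, with their paralogues, the highest and lowest gene of each other list in each comparison over all nuclei, further genes past 1.5-fold where 5 or fewer (chosen after their values were seen), and for each of the 8 the 3 most correlated genes with 1000 or more UMIs. The genes and lists were chosen with earlier results of these data known. There were 10 planned and 4 added alternatives, the latter chosen after seeing the data. The intervals were tested on counts simulated from the Poisson model that they assume, which checks the computation and not the spread between nuclei. Over all thinned nuclei of WT-Sham the variance over the mean was 1.04 for Mbnl1 and 1.68 for Rbfox1, where that model gives 1. For Celf2 in CM4 of WT-Sham it was 5.33. Python 3.11.15, NumPy 2.4.6, SciPy 1.17.1, pandas 2.3.3, R 4.3.3 and edgeR 4.0.16 (TMM factors only) were used.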

Additional observations from a re-analysis of the deposited data

Results flagged for a closer look

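With 1 library in each group none of the following differences was tested, and the intervals cover counting error only. Each stands here because a gene's ratio went one way in one group and the other way in the other, with both intervals apart from 0.

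Rbm24 over all nuclei was higher in KO than in WT after MI (0.11 on the log2 scale) and lower after Sham (−0.31), a difference of 0.42 (0.33 to 0.51). With the 4 populations weighted equally the values for Rbm24 were 0.17 and 0.084, both above 0. In CM1 the values were 0.10 and −0.37, a difference of 0.47 (0.37 to 0.57). Genes under 20 kb, the class of Rbm24, had medians of 0.11 and 0.05 over all nuclei.

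Rbm20 in the cycling population CM2 was lower after MI in WT (−0.32, from 690 and 376 UMIs) and higher in KO (0.16, from 848 and 1057 UMIs). Red cell genes summed to 18447 CPM in CM2 of WT-MI and to 1051 to 1892 CPM in the other libraries, and their part in this was not tested.

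In CM4, KO over WT had opposite signs after MI and after Sham for 3 genes. It was −0.67 and 0.89 for Rbm20, a difference of −1.56 (−1.82 to −1.30). For Mbnl2 it was −0.86 and 0.62, a difference of −1.48 (−2.01 to −0.96), and for Celf2 −0.74 and 0.55, a difference of −1.29 (−1.63 to −0.95). The same sums give MI over Sham of 0.59 in WT and −0.97 in KO for Rbm20, and of 1.03 and −0.26 for Celf2. Genes of 100 to 500 kb had median ratios of −0.37 and 0.40 for KO over WT and of 0.51 and −0.26 for MI over Sham, in the same directions, and red cell genes summed to 12805, 7833, 8411 and 3538 CPM in CM4 of WT-Sham, KO-Sham, WT-MI and KO-MI, which held 192, 351, 192 and 118 nuclei. The part of these in the signs was not tested. In the nuclei poorer in RNA of other cell types, KO over WT after MI was −0.08 for Rbm20 and 0.13 for Mbnl2. MI over Sham for Rbm20 was −0.51 in WT and −1.44 in KO there. These signs were thus no longer opposite for Mbnl2 and for MI over Sham of Rbm20, in smaller sums given without intervals. In thinned CM4 nuclei the variance over the mean of Rbm20 was 1.95, 1.52, 3.26 and 1.91, in the same order of libraries. That of Celf2 in WT-Sham was 5.33. The intervals above leave out this spread between nuclei and are too narrow for these sums. The thinned share of CM4 nuclei with a Rbm20 UMI was 53.5%, 81.8%, 57.1% and 55.9%. This share thus differed between genotypes after Sham but hardly after MI.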

How the results depend on the processing

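Of 77 medians over the 8 genes recomputed under the alternatives, 62 stayed within the interval of the value as reported. For the 256 ratios a change of sign was counted only where the ratio had reached 1.5-fold. Of those, which are fewer than 256, 22 changed sign under at least 1 setting, 24 times in all. Smaller ratios that changed sign are not in this count. No paired analysis was possible because each group is 1 library without replicate numbers, and for the same reason no replicate could be left out. Keeping only nuclei with no UMI of other cell types' markers, red cell genes aside, left 65 of 8585 nuclei. These were 14, 35, 7 and 9 nuclei of WT-Sham, KO-Sham, WT-MI and KO-MI. This choice gave values for all nuclei and CM1 alone. It put the median at 0.18 for KO over WT after MI, −0.022 for KO over WT after Sham and −0.16 for MI over Sham in WT. There MI over Sham turned for Rbfox2 in WT (−0.11, and −0.16 in CM1) and for Rbfox1 in KO (0.18). For KO over WT after Sham, reported as −0.23, the median was −0.12 with TMM, −0.14 with the median of all genes at no change, 0.0070 with populations weighted equally and −0.036 with the median of genes of 100 kb or more at no change. For MI over Sham in KO, reported as 0.06, it was −0.054 with populations weighted equally, −0.037 in nuclei with few UMIs of other cell types and −0.064 with long genes at no change. CM2 over CM1, reported as −0.13, was −0.31 with TMM and −0.032 with the transferred label. CM4 over CM1, reported as −0.98, was −0.20 with long genes at no change, and CM5 over CM1, reported as −0.01, was 0.075 there and −0.10 after thinning. With long genes at no change, CM4 over CM1 turned in WT-Sham for Mbnl1 (0.37), Celf1 (0.23) and Rbfox2 (0.021) and in KO-MI for Mbnl1 (0.022) and Rbfox2 (0.13). In nuclei with few UMIs of other cell types it turned in WT-Sham for Mbnl1 (0.051) and Celf1 (0.022), and within CM4 KO over WT after MI turned for Mbnl2 (0.13) and MI over Sham in WT for Rbm20 (−0.51) and Celf1 (−1.06). With the transferred label, whose CM2 and CM5 hold other nuclei, Mbnl1 in CM2 turned for KO over WT after Sham (0.36), MI over Sham in WT (0.57) and CM2 over CM1 in WT-Sham (−0.49). In CM5 of that label Rbfox1 turned for KO over WT after Sham (0.13) and for MI over Sham (0.14 in WT, 0.031 in KO), as did Rbm24 for MI over Sham in WT (0.066). CM5 over CM1 turned for Rbm24 (0.21 in WT-MI, 0.26 in KO-MI), Mbnl2 (−0.037 in WT-MI) and Rbfox1 (0.048 in KO-MI). With CM2 and CM5 of that label exchanged no such ratio changed sign and 196 of 224 lay within the interval. Without a minimum of UMIs, genes past 1.5-fold made up 19.5% and 23.5% for KO over WT after MI and Sham and 37.7% and 34.7% for MI over Sham in WT and KO, and with a minimum of 20 UMIs 7.62%, 11.3%, 28.3% and 26.5%. The cause of these shifts was not tested.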
